A study of Mus musculus with 2 samples.

Results

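The transcripts of 10 genes linked to antigen receptor and calcium signalling in T cells were examined in Tregs of spleen and fibrotic lung. These were the nuclear receptors Nr4a1, Nr4a2 and Nr4a3, the zinc finger factor Egr3, and the transcription factors Nfatc1, Nfatc2 and Nfatc3. The calcineurin regulator Rcan1 and the HMG-box factors Tox and Tox2 made up the rest. All 10 genes were taken by symbol and were found among the 24346 symbols listed in each library. Bulk RNA-seq was available for 1 library of splenic Tregs and 1 library of lung Tregs. Both came from FDG mice (genotype Foxp3-DTR-GFP) aged 10 to 16 weeks, in which the diphtheria toxin receptor and GFP are expressed from the Foxp3 locus, so that GFP marks the cells transcribing Foxp3. All mice had received 50 μg of bleomycin (BLM) into the trachea, a drug that injures the lung and leads to fibrosis, and GFP+CD4+ cells were sorted on day 15, with the cells of 3 mice pooled for each library. Mice without BLM were not analysed here, so the comparison is between tissues of treated mice and not between treated and untreated mice. The lung was dissociated by warm enzymatic digestion and its cells were enriched on a Percoll gradient, whereas the sources used here do not spell out the preparation of the spleen.

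When a T cell receptor is engaged, calcium is released from the endoplasmic reticulum and then enters through channels of the plasma membrane. Calcium-loaded calmodulin switches on the phosphatase calcineurin, which removes phosphates from NFAT proteins and lets them enter the nucleus, where they act with AP-1 and other partners. NFAT and the kinase arms of the receptor pathway induce NR4A and EGR genes within a short time, Rcan1 is an NFAT target whose product binds and restrains calcineurin, and TOX factors are induced by sustained NFAT activity. In Tregs, NR4A receptors help to maintain Foxp3 expression and to restrain effector programmes, and NFAT forms a complex with Foxp3 on DNA. NR4A and EGR genes are immediate early genes, which many stimuli also switch on in macrophages and other cells.

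The promoters of the NR4A genes are shown first because cyclic AMP response elements in them are a known route of their rapid induction. RefSeq promoter windows (GRCm38.p6) were at hand for 7 of the 10 genes, and the 250 bases upstream of each start were searched on both strands. The letters TGACG, the core of the cyclic AMP response element (CRE half-site), occurred 4 times in the window of each of the 3 NR4A genes. Of the 32851 windows of the same length from 27025 genes, 17.8% held at least 1 such match and 0.137% held at least 4. This motif was chosen after these sequences had been read, and the windows were not matched for G and C content. The shares are therefore not a test of rarity. In the lines that follow, written 5′ to 3′ on the gene's own strand with the transcript start just after the last base, capitals mark TGACG and its reverse complement CGTCA. The windows lie at chr15:101266596-101266845 on the plus strand for Nr4a1, at chr2:57124004-57124253 on the minus strand for Nr4a2 and at chr4:48045055-48045304 on the plus strand for Nr4a3. By the GENCODE gene spans given below, the Nr4a1 window belongs to a start inside the gene, the Nr4a3 window overlaps the first bases of the gene and the Nr4a2 window lies just outside the gene.
Nr4a1: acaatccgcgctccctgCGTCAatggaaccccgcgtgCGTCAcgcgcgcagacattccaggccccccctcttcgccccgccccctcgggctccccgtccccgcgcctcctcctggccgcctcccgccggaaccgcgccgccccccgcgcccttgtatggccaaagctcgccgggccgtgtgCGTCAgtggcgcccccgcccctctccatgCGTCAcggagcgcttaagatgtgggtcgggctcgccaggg
Nr4a2: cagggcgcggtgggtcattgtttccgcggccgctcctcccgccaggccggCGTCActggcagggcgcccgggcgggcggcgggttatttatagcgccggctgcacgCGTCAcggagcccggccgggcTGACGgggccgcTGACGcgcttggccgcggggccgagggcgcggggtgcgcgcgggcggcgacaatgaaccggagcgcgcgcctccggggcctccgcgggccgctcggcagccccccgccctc
Nr4a3: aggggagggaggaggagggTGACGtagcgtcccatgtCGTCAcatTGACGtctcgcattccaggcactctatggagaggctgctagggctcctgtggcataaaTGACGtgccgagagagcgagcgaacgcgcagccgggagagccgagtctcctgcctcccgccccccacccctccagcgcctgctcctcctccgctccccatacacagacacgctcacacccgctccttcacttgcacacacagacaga

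The 4 matches began 233, 213, 69 and 40 bases before the start in Nr4a1, 200, 144, 123 and 111 bases before it in Nr4a2, and 231, 213, 205 and 147 bases before it in Nr4a3. The longer form TGACGT was found 3 times in Nr4a3 and in neither of the other NR4A windows. Of all windows, 6.47% held it at least 1 time and 0.152% at least 3 times. The EGR motif GCGNGGGCG occurred 1 time in Nr4a1 and 1 time in Nr4a2, against 4.70% of all windows with a match. The windows are rich in G and C, at 74.4% in Nr4a1, 80% in Nr4a2 and 63.6% in Nr4a3. None of the windows of these 7 genes held AAAGGTCA, the element that NR4A monomers bind (NBRE), which was present in 1.34% of all windows. A match gives letters in a sequence, and binding was not measured.

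Rcan1 has alternative first exons, and both of its windows lie inside the gene span given below. The window of the inner start, at chr16:92400079-92400328 on the minus strand, is shown because the product of that start is the form known to be induced by NFAT. The NFAT core GGAAA was found 3 times there, 227, 193 and 163 bases before the start, and capitals mark it and its reverse complement TTTCC.
Rcan1: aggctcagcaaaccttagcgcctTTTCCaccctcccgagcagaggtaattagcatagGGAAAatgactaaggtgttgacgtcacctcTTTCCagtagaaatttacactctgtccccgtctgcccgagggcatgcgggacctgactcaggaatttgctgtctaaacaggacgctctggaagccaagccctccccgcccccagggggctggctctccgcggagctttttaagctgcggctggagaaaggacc

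Among all windows, 55.6% held GGAAA at least 1 time and 6.39% at least 3 times, so the motif is common by itself. The palindrome formed by TGACGT and its reverse complement lay in the same window, which gave 2 overlapping matches, and TGANTCA, the AP-1 motif found in 6.75% of windows, was present 1 time, 110 bases before the start. The outer Rcan1 window, at chr16:92466170-92466419, held no GGAAA. One of the Nfatc2 windows, at chr2:168601658-168601907, also held GGAAA 3 times. The FPKM of a gene combines its transcripts, so the use of either Rcan1 start cannot be read from these values.

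Values are FPKM as deposited, that is, reads scaled to transcript length and library size. Levels of different genes can therefore be set side by side. How the libraries were scaled to each other is not given in the sources used here. The splenic FPKM summed to 599633 and the lung FPKM to 808853, and the reads behind them were estimated at 9.65e+06 and 1.26e+07 from the value of 1 read. No difference has a replicate check, because there is 1 library per tissue, and no p-value is given. The 95% intervals quoted are exact Clopper-Pearson intervals of the estimated reads and cover counting error only, without the variation between mice, sorts or amplifications. Ratios of lung to spleen were taken with any value under 0.1 FPKM set to 0.1, and a difference of over 2-fold was counted as higher or lower.

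The sort was checked against marker genes before the comparison. All 8 T cell markers were present in both libraries and stayed within 2-fold, with Cd3e at 513 FPKM in spleen and 369 FPKM in lung. Of the 6 Treg markers, 3 were higher and 3 lower in lung. Foxp3 was at 18.7 FPKM in splenic Tregs and 41.8 FPKM in lung Tregs and Tnfrsf18, the most abundant, at 470 and 919 FPKM, whereas Lrrc32 was lower in lung, at 69.4 and 30.4 FPKM (log2 -1.19), and Il2ra was at 89.4 and 59.1 FPKM. Over 2-fold, 2 were higher and 1 lower, and on the TPM scale 1 was higher and 2 were lower. Markers of other cells were also present. All 10 macrophage markers were higher in the lung library, 7 of them over 2-fold, none was at 0 in either library, and their summed level went from 676 FPKM (spleen) to 27250 FPKM (lung), of which the lysozyme gene Lyz2 alone made up 24947 FPKM. The 8 B cell markers were all lower in lung with splenic and lung sums of 262 and 138 FPKM, while the 5 neutrophil markers that were listed were all higher in lung, with sums of 425 and 1200 FPKM. Fibroblast markers summed to 0.290 FPKM in spleen, where 3 of 6 were at 0, and to 47.0 FPKM in lung, and epithelial markers to 10.7 and 3129 FPKM, with 3 of 6 at 0 in spleen. The club cell gene Scgb1a1 made up most of the epithelial sum in lung, at 1.48 FPKM in splenic and 3021 FPKM in lung Tregs, while Epcam was lower in lung, at 8.75 and 1.79 FPKM. Dendritic cell markers had sums of 9.43 and 39.9 FPKM, but 3 were higher and 3 lower in lung. Itgax, at 1.36 and 24.1 FPKM, made up most of the lung sum. Innate lymphoid and NK markers had sums of 26.7 and 25.7 FPKM, again with 3 higher and 3 lower. Among the lower ones, Ncr1 was at 2.69 FPKM in spleen and was listed at 0 in lung. Neither sum therefore stands for all markers of its list. Endothelial markers summed to 55.5 and 48.7 FPKM, mostly from Pecam1 at 54.8 and 31.7 FPKM, which leukocytes also express, but 3 of the 4 that reached 1 FPKM were over 2-fold higher in lung, as for Cldn5 at 0.160 and 6.54 FPKM. Transcripts of other cell types were thus present beside those of Tregs, more so in the lung library, and a lower value in bulk RNA cannot separate fewer cells of a type from less RNA per cell.

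Of the 10 genes, 3 were over 2-fold higher in lung Tregs, 2 were over 2-fold lower and 5 stayed within 2-fold. As background, 17.8% of the 12094 genes that reached 1 FPKM in either library exceeded 2-fold upwards in lung and 15.5% did so downwards, so the counts for so short a list lie near those of all genes. The 3 higher genes were the 3 NR4A receptors and the 2 lower genes were Egr3 and Nfatc3. The 10 genes had a median log2 ratio of 0.26, and all 12094 had one of 0.03. All 10 reached 1 FPKM in at least 1 library and 9 did so in both, with Egr3 in lung as the exception.

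**Figure D1:**
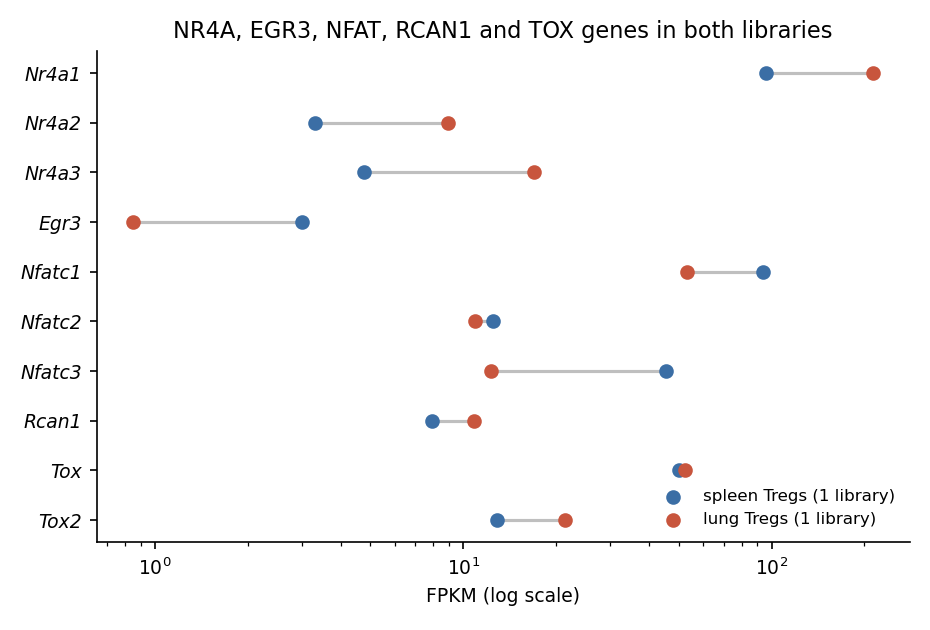
FPKM (log scale) of the 10 genes in the splenic library (blue) and the lung library (red), 1 point per library, joined by a grey line for each gene. The NR4A genes lie to the right in lung, from 96.2 to 213 FPKM for Nr4a1, while Egr3 and Nfatc3 lie to the left, and the points of Tox almost coincide.

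The scaling of the libraries moves the ratios of the 10 genes together. When both libraries were rescaled to TPM, which removes the difference in FPKM sums, log2 ratios shifted by -0.43 wherever neither value was raised to the floor, as for all 10 genes, and the median of the 12094 genes became -0.40. On the TPM scale, 2 of the 10 genes were over 2-fold higher (Nr4a2 and Nr4a3) and 3 were over 2-fold lower (Egr3, Nfatc1 and Nfatc3), beside 13.1% and 25.9% of all genes. The T cell markers had a median log2 ratio of -0.20 on the deposited scale. A ratio taken relative to these markers is given below where it matters, as an alternative chosen after the data had been seen.

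Nr4a1, also called Nur77, is the receptor whose transcription is widely used as a reporter of T cell receptor signals. Its level was 96.2 FPKM in splenic Tregs and 213 FPKM in lung Tregs, from an estimated 2263 and 5690 reads. Nr4a1 thus had the highest value of the 10 genes in both libraries, though in spleen it was only 1.03-fold above Nfatc1. It moved from rank 1022 to rank 584 among all listed genes. The lung value was 2.21-fold higher (interval 2.11 to 2.33, log2 1.15). It remained higher on the TPM scale at a log2 ratio of 0.72, which is within 2-fold, and was at 1.35 relative to the T cell markers. Among the 1113 genes whose mean level was within 2-fold of that of Nr4a1, 7.37% were higher in lung by as much or more. The gene occupies chr15:101254269-101274795 on the plus strand.

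Nr4a2, known as Nurr1 for its part in dopaminergic neurons, was much lower than Nr4a1 in either tissue. It was at 3.30 FPKM in spleen and 8.96 FPKM in lung, with about 113 and 346 reads. This was 2.71-fold higher in lung (interval 2.17 to 3.37, log2 1.44), and the log2 ratio was 1.01 on the TPM scale, just past 2-fold. As many as 10.4% of the 3302 genes of like level were higher in lung to this extent, so the Nr4a2 ratio is less unusual for its level than that of its relatives. The gene lies at chr2:57106830-57124003 on the minus strand.

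Nr4a3, or NOR-1, showed the largest ratio of the 10 genes. It rose from 4.78 FPKM in spleen to 17.0 FPKM in lung, from about 273 and 1101 reads. The lung value was 3.55-fold higher (interval 3.11 to 4.07, log2 1.83), with a log2 ratio of 1.40 on the TPM scale and 2.03 relative to the T cell markers. Among the 3771 genes of like level, 4.67% were higher in lung to this extent or more, and Nr4a3 moved from rank 8380 to rank 4850. The interval for Nr4a3 lies above that for Nr4a1 and overlaps that for Nr4a2. Nr4a3 lies at chr4:48045153-48086447 on the plus strand.

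Together the 3 receptors summed to 104 FPKM in splenic Tregs and 239 FPKM in lung Tregs, a 2.29-fold higher sum. Nr4a1 made up most of it, with 92.2% in spleen and 89.2% in lung, whereas Nr4a3 accounted for 4.58% and 7.10% and Nr4a2 for 3.17% and 3.75%. Set against the geometric mean of the 8 T cell markers, which was 353 FPKM in splenic and 319 FPKM in lung Tregs, the NR4A sum was 29.6% in spleen and 75.0% in lung. Nr4a1 alone was at 0.187 of Cd3e in spleen and 0.577 of Cd3e in lung. These ratios are within a library and do not depend on the scaling between libraries, but they do not separate Treg RNA from that of other cells.

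**Figure D2:**
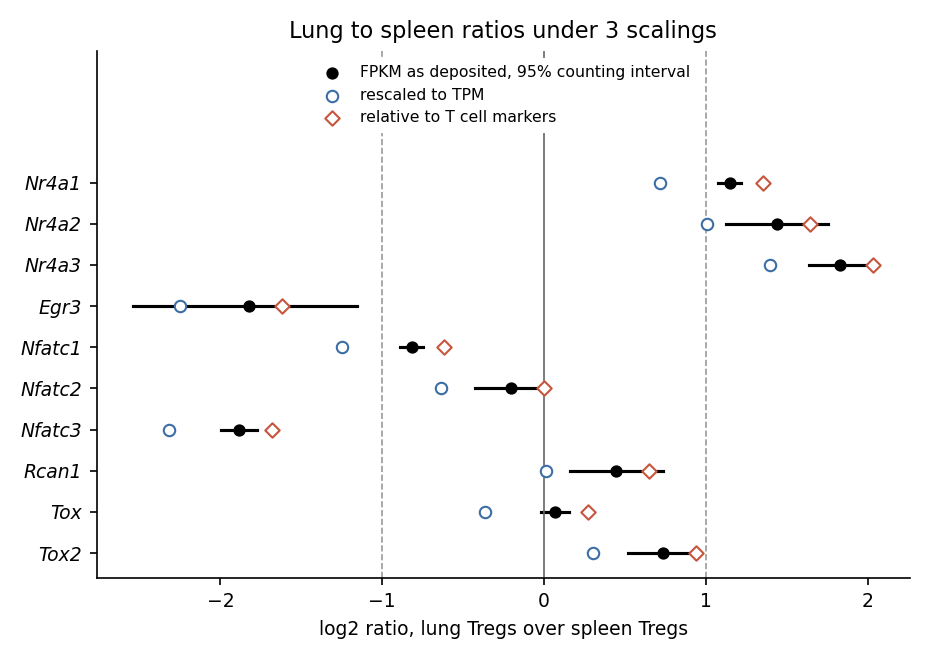
Log2 ratios of lung over splenic Tregs for the 10 genes, with FPKM as deposited (black, with the 95% counting interval), after rescaling to TPM (open circles) and relative to the T cell markers (open diamonds), and dashed lines at 2-fold. Nr4a2, Nr4a3, Egr3 and Nfatc3 lie past 2-fold in all 3 scalings, Nr4a1 falls to 0.72 on the TPM scale, and Tox changes sign.

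Egr3 is a zinc finger factor that, with Egr2, restrains T cell activation and is induced by NFAT. In contrast to the NR4A genes it was lower in lung, at 3.01 FPKM in spleen and 0.852 FPKM in lung. The 3.53-fold difference (interval 2.23 to 5.80, log2 -1.82) rests on few reads, about 78.5 in spleen and 25.2 in lung, and 14.9% of the 1912 genes of like level were lower in lung to the same extent. With 1 FPKM added to both values, the log2 ratio was -1.11. Egr3 was the lowest of the 10 genes in both tissues, close to Nr4a2 in spleen and 10.5-fold below it in lung. It lies at chr14:70077203-70082614 on the plus strand.

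The other EGR genes did not move as a group. Egr1, the most abundant of them, was at 82.5 FPKM in spleen and 28.8 FPKM in lung, a log2 ratio of -1.52, whereas Egr2 was at 17.2 and 20.5 FPKM, which is within 2-fold. Egr4 was at 0.204 FPKM in spleen and was listed at 0 in lung. Of the corepressors that bind EGR proteins, Nab2 was lower in lung, at 17.5 and 7.89 FPKM (log2 -1.15), and Nab1 stayed within 2-fold, at 27.7 and 25.6 FPKM. Egr1 and Egr3 thus differed from the NR4A genes in direction, although all are immediate early genes. In spleen Nr4a1 was 1.17 times the level of Egr1 and 32.0 times that of Egr3, and in lung it was 7.39 times and 250.2 times those levels.

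The NFAT factors themselves carry calcium signals through their location in the cell, so their transcript levels give the amount of message and not their activity. Nfatc1, which is induced by NFAT in activated lymphocytes, was at 93.5 FPKM in splenic Tregs and 53.0 FPKM in lung Tregs, from about 4251 and 2736 reads. It was 1.76-fold lower in lung (interval 1.68 to 1.85, log2 -0.82), within 2-fold on the deposited scale but past it on the TPM scale at -1.25. In spleen it was nearly level with Nr4a1, which was 1.03-fold above it, whereas in lung Nr4a1 was 4.02-fold above it. Nfatc1 lies at chr18:80606205-80713071 on the minus strand.

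Nfatc2, or NFAT1, is a form present in resting T cells. It was at 12.5 FPKM in splenic and 10.9 FPKM in lung Tregs. The 1.15-fold lower value had a counting interval of 0.983 to 1.34 that includes 1. Its log2 ratio was -0.20 as deposited, -0.64 on the TPM scale and -0.0014 relative to the T cell markers, within 2-fold in each case. The interval rests on about 329 and 325 reads at the median transcript length and on 860 and 848 reads at the longest, so its width depends on the length assumed. The gene lies at chr2:168476410-168601657 on the minus strand.

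Nfatc3, or NFAT4, had the lowest ratio of the 10 genes, with an interval inside that of Egr3. It was at 45.3 FPKM in splenic Tregs and 12.3 FPKM in lung Tregs, from about 2713 and 834 reads. The lung value was 3.69-fold lower (interval 3.42 to 3.996, log2 -1.89), and the log2 ratio was -2.32 on the TPM scale and -1.68 relative to the T cell markers. Of the 3648 genes within 2-fold of its mean level, 0.439% were lower in lung by as much or more, the smallest such share among the 10 genes. Nfatc3 lies at chr8:106058840-106130537 on the plus strand.

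The 3 NFAT transcripts had sums of 151 FPKM in splenic and 76.2 FPKM in lung Tregs, a lung to spleen ratio of 0.503. Their proportions differed between the libraries. Nfatc1 made up 61.8% of the sum in spleen and 69.6% in lung, Nfatc2 8.28% and 14.3%, and Nfatc3 29.9% and 16.1%. As a share of the T cell marker mean the NFAT sum was 42.9% in spleen and 23.9% in lung, so it was lower in lung where the NR4A sum was higher. Among relatives outside the 10 genes, Nfat5, which responds to osmotic stress and not to calcineurin, was at 3.71 and 3.97 FPKM, and Nfatc4 was under 1 FPKM in both libraries, at 0.0315 and 0.513 FPKM.

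**Figure D3:**
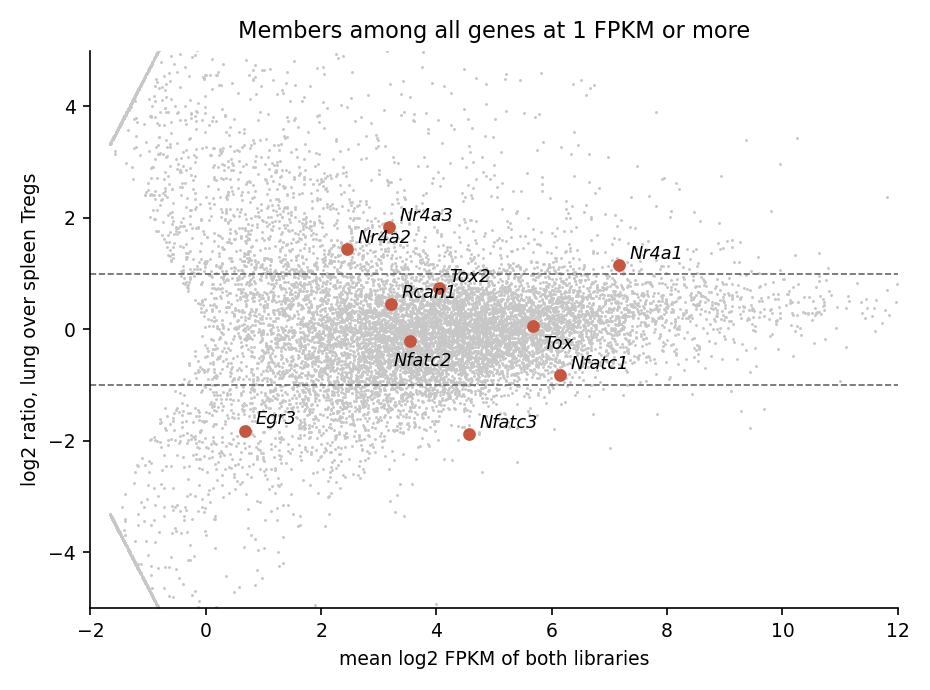
Log2 ratio of lung over splenic Tregs against the mean log2 FPKM of both libraries for the 12094 genes that reached 1 FPKM in either library (grey) and the 10 genes (red), with dashed lines at 2-fold; 410 grey genes lie outside the axes. Nfatc3 lies below most genes of its level, while Tox, Tox2, Rcan1 and Nfatc2 lie within the dense cloud.

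Rcan1 was at 7.94 FPKM in splenic Tregs and 10.8 FPKM in lung Tregs. The 1.36-fold higher value (interval 1.12 to 1.66, log2 0.45) is within 2-fold, and on the TPM scale the log2 ratio was 0.01. Of the 3780 genes of like level, 23.8% were higher in lung to this extent. Relative to Nfatc1, Rcan1 was at 0.0848 in spleen and 0.204 in lung. Rcan3, a paralog of Rcan1, was at 9.34 and 9.50 FPKM, and Rcan2 was listed at 0 in both. Rcan1 lies at chr16:92391953-92470867 on the minus strand.

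Upstream of Rcan1 and NFAT, the genes of the calcineurin complex were described as a list. Of 12 genes, 10 reached 1 FPKM, none was over 2-fold higher in lung, 2 were over 2-fold lower, and the median log2 ratio was 0.26. For this and the following lists, the background is 17.8% of all genes over 2-fold higher and 15.5% over 2-fold lower. The lower genes were Ppp3cc, a catalytic subunit of calcineurin, at 57.7 FPKM in spleen and 20.5 FPKM in lung (log2 -1.49), and Cabin1, a calcineurin inhibitor, at 12.3 and 5.05 FPKM (log2 -1.28). Ppp3cc was the most abundant catalytic subunit in both libraries. The other catalytic subunits stayed within 2-fold, with Ppp3ca at 13.6 and 11.0 FPKM and Ppp3cb at 7.20 and 3.82 FPKM, as did the regulatory subunit Ppp3r1, at 73.1 and 80.7 FPKM.

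Among 12 genes of calcium entry, all of which reached 1 FPKM, none was over 2-fold higher and 2 were over 2-fold lower, with a median of -0.23. These were Itpr3, an inositol trisphosphate receptor that releases calcium from the endoplasmic reticulum, at 6.81 and 3.26 FPKM (log2 -1.06), and Plcg1, the phospholipase that makes inositol trisphosphate, at 40.2 and 19.4 FPKM (log2 -1.05). The store-operated channel gene Orai1 was at 36.9 and 59.7 FPKM and its sensor Stim1 at 31.7 and 27.5 FPKM, both within 2-fold. Of 10 genes for the kinases that return NFAT to the cytoplasm, its export and its retention, 9 reached 1 FPKM and 2 were over 2-fold lower, with a median of -0.45. Gsk3a, a kinase that phosphorylates NFAT for export, was at 13.3 and 3.15 FPKM (log2 -2.07), and Lrrk2, which keeps NFAT in the cytoplasm as part of an RNA-protein complex, was at 1.77 and 0.498 FPKM (log2 -1.83).

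Tox, a factor of thymic CD4 T cell development and of T cells under chronic stimulation, hardly differed between the tissues. It was at 49.98 FPKM in splenic Tregs and 52.3 FPKM in lung Tregs, from about 1944 and 2311 reads. The 1.05-fold higher value has a counting interval of 0.985 to 1.11 that includes 1, and its sign depended on the scaling, with log2 ratios of 0.07 as deposited, -0.37 on the TPM scale and 0.27 relative to the T cell markers. Tox lies at chr4:6686353-6991557 on the minus strand.

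Tox2, known from follicular helper and chronically stimulated T cells, was at 12.8 FPKM in spleen and 21.3 FPKM in lung. It was 1.66-fold higher in lung (interval 1.43 to 1.93, log2 0.73), within 2-fold, and 12.8% of the 3899 genes of like level were higher to this extent. Tox was 3.90 times the level of Tox2 in spleen and 2.45 times its level in lung. Their sum was 62.8 FPKM in spleen and 73.6 FPKM in lung, or 17.8% and 23.1% of the T cell marker mean. Among their relatives, Tox4 was lower in lung, at 33.8 and 14.8 FPKM (log2 -1.19), and Tox3 was listed at 0 in both libraries. Tox2 lies at chr2:163203125-163324170 on the plus strand.

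The order of the 10 genes by level differed between the tissues. In spleen it ran from Nr4a1 through Nfatc1, Tox, Nfatc3, Tox2, Nfatc2, Rcan1, Nr4a3 and Nr4a2 to Egr3. In lung Nr4a1 was again first and Egr3 last, with Nfatc1, Tox, Tox2, Nr4a3, Nfatc3, Nfatc2, Rcan1 and Nr4a2 between them. The main shift was that Nr4a3 moved from the eighth place to the fifth and Nfatc3 from the fourth to the sixth. Some neighbours were nearly level. In spleen Nr4a1 was 1.03-fold above Nfatc1 and Tox2 was 1.02-fold above Nfatc2. In lung Nfatc1 was 1.01-fold above Tox and Nfatc2 was 1.01-fold above Rcan1. Without replicates an order between such neighbours cannot be given.

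The genes associated with NFAT and NR4A in T cells, a list of 22 receptors, regulators and transcription factors, were next set beside the members. Of these, 21 reached 1 FPKM, 8 exceeded 2-fold upwards in lung and 3 downwards, with a median of 0.27. The inhibitory receptor genes Pdcd1 (PD-1), at 73.2 FPKM in spleen and 378 FPKM in lung (log2 2.37), and Havcr2 (TIM-3), at 1.69 and 7.67 FPKM (log2 2.18), were higher, as was Ctla4, at 221 and 601 FPKM (log2 1.44). Lag3, another inhibitory receptor, was lower in lung, at 4.62 and 1.04 FPKM (log2 -2.15), so the receptors of this class did not share a direction.

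Rnf128, which encodes the E3 ligase GRAIL of anergic T cells, had the largest ratio of the list, at 3.26 FPKM in spleen and 27.8 FPKM in lung (log2 3.09). The transcription factors Irf4 at 6.57 and 16.2 FPKM (log2 1.30) and Batf at 117 and 244 FPKM (log2 1.06), partners of AP-1 and NFAT at shared sites, were higher in lung. Nfil3 at 21.8 and 54.7 FPKM (log2 1.33) and Foxp3 with a log2 ratio of 1.16 were also higher. The other lower genes restrain receptor signals, namely the diacylglycerol kinase gene Dgkz at 91.3 and 42.1 FPKM (log2 -1.12) and the Sprouty gene Spry1 at 28.6 and 12.5 FPKM (log2 -1.19). On the TPM scale 4 of these genes were over 2-fold higher and 5 were over 2-fold lower. Over the 5 lists together, 59 of 67 genes reached 1 FPKM. Of these, 8 were higher, 12 lower and 39 within 2-fold, with a median of -0.04. Among all genes 17.8% were over 2-fold higher and 15.5% lower, so these counts lie near that background. After rescaling to TPM, 4 were higher and 18 lower, beside 13.1% and 25.9% of all genes. The 8 genes higher on the deposited scale were all in this last list.

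**Figure D4:**
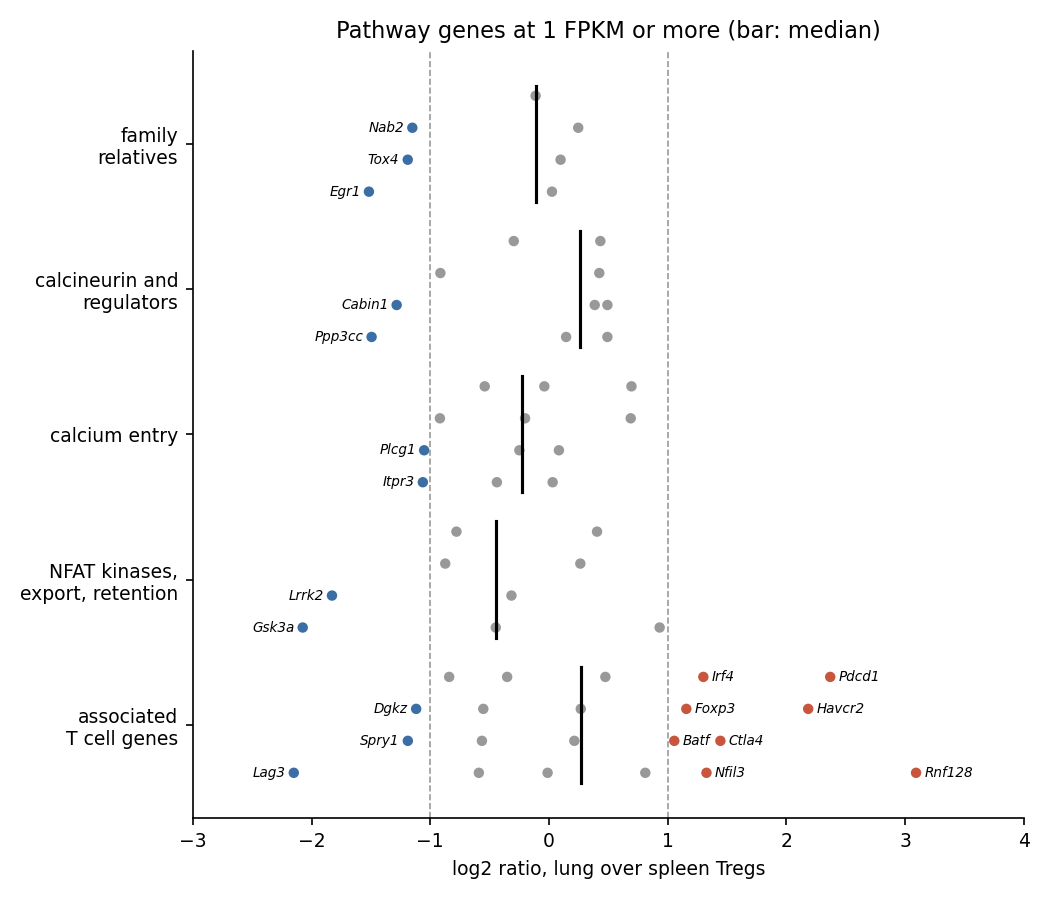
Log2 ratios of lung over splenic Tregs for those genes of 5 lists that reached 1 FPKM in either library, 1 point per gene, red where over 2-fold higher in lung and blue where over 2-fold lower; the vertical bar is the median of a list and the points are spread vertically only to separate them. Genes over 2-fold higher appear in the associated T cell genes, from Batf at 1.06 to Rnf128 at 3.09, and the other 4 lists hold lower genes but none over 2-fold higher.

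NR4A and EGR transcripts can be induced while tissue is taken apart, and only the lung is known to have been digested warm. A list of 18 immediate early and heat shock genes seen after dissociation was therefore placed beside the NR4A values, with Egr1 in it as well as among the relatives above. In lung, 5 of the 18 were over 2-fold higher and 1, Egr1 (log2 -1.52), was over 2-fold lower. The median log2 ratio was 0.53. The higher genes included Atf3, at 5.67 FPKM in spleen and 87.7 FPKM in lung (log2 3.95), Ier3, at 2.41 and 45.1 FPKM (log2 4.23), Socs3, at 39.2 and 81.7 FPKM (log2 1.06), and the heat shock genes Hspa1a (log2 4.04) and Hspa1b (log2 3.26), near-identical copies between which reads may have been divided. Fos, at 411 and 316 FPKM, and Jun, at 132 and 82.6 FPKM, were within 2-fold, and Dusp1, the most abundant gene of the list, was at 774 and 1132 FPKM. On the TPM scale 4 were over 2-fold higher and 2 were over 2-fold lower. On the deposited scale, 17.8% of all genes were over 2-fold higher and 15.5% over 2-fold lower, with a median log2 ratio of 0.03. Counting differences of any size, 12 of the 18 were higher in lung and 6 were lower. The part of dissociation in the NR4A and EGR values was not tested.

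**Figure D5:**
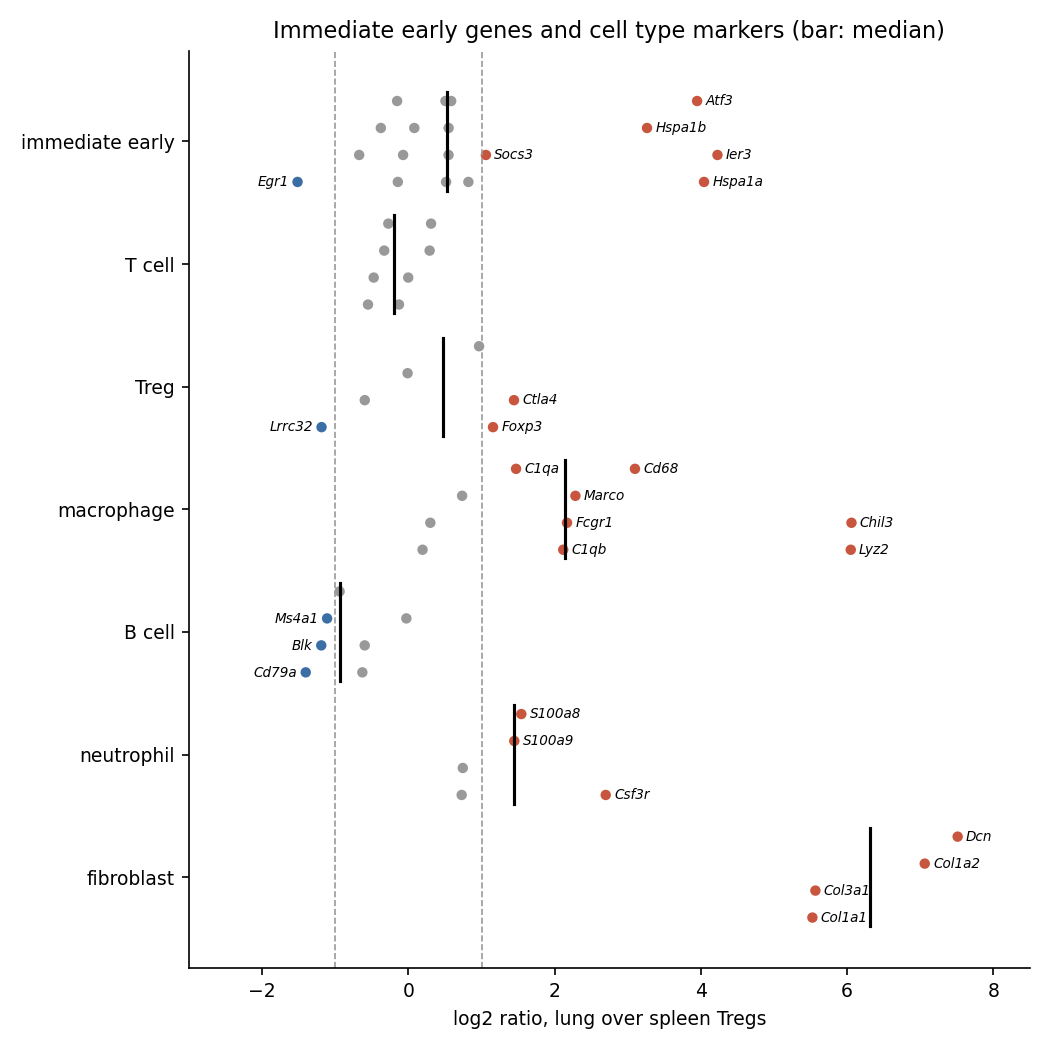
Log2 ratios of lung over splenic Tregs for immediate early genes and for marker genes of 6 cell types that reached 1 FPKM in either library, drawn as in the plot of the pathway lists, with values under 0.1 FPKM raised to 0.1. T cell markers lie within 2-fold, whereas 7 of 10 macrophage markers and all 4 fibroblast markers plotted lie over 2-fold higher in lung.

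Because the macrophage markers were 40.3-fold higher in sum in the lung library, their range is given here beside the NR4A genes. Lyz2 was at 376 and 24947 FPKM and Chil3, an alveolar macrophage gene, at 17.4 and 1161 FPKM, whereas Csf1r, the receptor gene that defines mononuclear phagocytes, was at 43.8 and 50.1 FPKM. NR4A log2 ratios ran from 1.15 to 1.83. The macrophage markers ranged from 0.19 for Csf1r to 6.06 for Chil3. Of these markers, C1qa at 1.47 lay inside the NR4A range, with Adgre1 at 0.73 next below it and C1qb at 2.12 next above. The genes with the pattern most like that of Nr4a1, by the distance of log2(FPKM + 0.1) over the 2 libraries, were Atp6v0b, at 93.8 and 207 FPKM (distance 0.0533), Ctsc, at 92.8 and 219 FPKM (distance 0.0659), and Tmem14c, at 99.7 and 206 FPKM (distance 0.0692). With 2 libraries such likeness means only a similar level in each. The part of other cell types in the values of the 10 genes was not tested.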

How the data were processed

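The splenic and the lung library of GFP+CD4+ cells were assigned by their labels. The authors made cDNA with SMART-Seq HT, mapped reads to mm10 with TopHat2 2.1.1 (Bowtie2 2.2.8, SAMtools 0.1.18) and deposited FPKM computed with Cuffdiff 2.2.1. The annotation, options and use of strand are not given in the sources used here.

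Ratios of lung to spleen were formed with a floor of 0.1 FPKM and described over genes that reached 1 FPKM in either library. Reads were estimated from GENCODE M21 transcript lengths (GRCm38, 23016 symbols, 94.5%), with a fragment mean of 200 and SD of 80. At 1 kb, 1 read was worth 0.0965 FPKM in spleen and 0.0850 FPKM in lung. The median length was used where a gene has several transcripts, so reads are approximate. PCR copies are counted separately, and intervals cover counting error only.

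All 10 genes were named, and of the other lists those over 2-fold, all family relatives and the 3 genes nearest to Nr4a1. Of the immediate early genes and markers, the rule allowed the highest and lowest by FPKM and those a result turned on, of which only some are named. Il2ra, Cldn5, C1qa, C1qb, Adgre1, the subunits Ppp3ca, Ppp3cb and Ppp3r1, and Orai1 and Stim1, were named outside this rule after their values were seen. Members and lists were chosen with earlier results of these data known. Motifs were searched in RefSeq promoter windows. Alternatives were other floors, pseudocounts, scalings, filters and folds. Steps were tested on simulated data. Values were computed in Python 3.11.15 (pandas 2.3.3, scipy 1.17.1).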

Additional observations from a re-analysis of the deposited data

How the results depend on the processing

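With 1 library per tissue, no replicate could be left out, and no value gives the variation between mice. No paired analysis was possible because each tissue has 1 library. Under 8 alternatives of floor, pseudocount and scaling, Nr4a2, Nr4a3, Egr3 and Nfatc3 kept their direction and stayed past 2-fold. Nr4a1 stayed past 2-fold in 6, with log2 ratios from 0.72 (TPM) to 1.35 (relative to T cell markers). It fell within 2-fold on the TPM scale and at equal upper quartiles (0.97). The floor of 0.01 FPKM could not move any of the 10 genes, and the floor of 1 FPKM could move only Egr3. The count of 6 therefore includes settings that could not change Nr4a1. Nfatc1 passed 2-fold in 1 of the 8 (TPM, -1.25), and Tox kept its sign in 6. The median log2 ratio of the 10 genes was -0.18 after rescaling to TPM and 0.46 relative to the T cell markers, a scaling chosen after the data had been seen. Over 4-fold, 0 of the 10 genes were higher and 0 lower, and over 1.5-fold 4 were higher and 3 lower. The shares of all genes at 4-fold and at 1.5-fold were not computed, so these counts cannot be set against a background. Without a minimum FPKM, 11% of all genes were over 2-fold higher in lung. With the longest transcript in place of the median length, the estimated reads of Egr3 were 116 in spleen and 37.4 in lung and those of Nfatc2 860 and 848, so read numbers of genes with several transcripts are the least certain values.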
